A study of Homo sapiens with 16 samples.

Results

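The genes described here are the 10 that encode growth differentiation factor 11 (GDF11), its closest relatives among the activin-class ligands, the receptors these ligands share, and the follistatin-type proteins that bind them. They were taken by name (*GDF11*, *MSTN*, *INHBA*, *INHBB*, *ACVR2A*, *ACVR2B*, *ACVR1B*, *TGFBR1*, *FST* and *FSTL3*) from a count table of 60649 genes. All 10 were found in the table, and 9 of them were among the 19103 genes with enough counts to be tested, *MSTN* being the exception. Poly(A) RNA of ASC52telo cells, a line of human mesenchymal stem cells (MSCs) from adipose tissue immortalized with telomerase, was sequenced in 16 libraries, 4 biological replicates in each of 4 groups. 'Young' MSCs without any addition (MmC-/GDF11-) were compared with MSCs made senescent by the DNA-alkylating agent mitomycin C at 1.5 µg/mL for 18 h (MmC+/GDF11-). The other two groups had the same histories but received recombinant GDF11 protein at 10 ng/mL over the following 10 days (MmC-/GDF11+ and MmC+/GDF11+), and RNA of all groups was collected at the end of that time. All of it came from a single cell line with wild-type genotype, and the labels gave every library the same batch. The libraries held between 71275337 and 144204979 counted reads.

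GDF11 and myostatin (MSTN) are closely related secreted ligands, and activins are dimers of the chains encoded by *INHBA* and *INHBB*. Each ligand is held by a type II receptor (ACVR2A or ACVR2B), which recruits and activates a type I receptor (ACVR1B, also called ALK4, or TGFBR1, also called ALK5), and the activated receptor phosphorylates SMAD2 and SMAD3. Follistatin (FST) and follistatin-like 3 (FSTL3) wrap around these ligands outside the cell and keep them from their receptors. In MSCs and other stromal cells the pathway is known for control of differentiation, matrix production and secretion.

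Mitomycin C was accompanied by much higher RNA of both activin chains and of follistatin, and by higher RNA of the type I receptors, while *FSTL3* did not differ detectably. Without added GDF11, 7 of the 9 tested genes were higher in senescent MSCs and 1 was lower at an adjusted p under 0.05 (edgeR quasi-likelihood test on all 16 libraries, Benjamini-Hochberg adjustment over all tested genes). Over all tested genes, 22.9% were called higher and 22.4% lower in that comparison. With added GDF11, 6 of the 9 were higher and 0 were lower, against 23.4% and 23.3% of all tested genes. Without replicate 1 of every group, whose libraries stood apart for several genes, 6 were called without and 7 with GDF11, while of all tested genes 26.2% were then higher and 25.6% lower without GDF11 and 26.4% and 26.2% with GDF11. The median log2 fold change over the 9 genes was 0.63 without and 0.57 with added GDF11, and over all tested genes it was -0.01 in both comparisons. In 7 of the 9 the 4 senescent and 4 young libraries without GDF11 did not overlap, as for 37% of all tested genes. With GDF11 this held for 6 of the 9 and for 41.3% of all tested genes. Added GDF11 protein itself was followed by a call in 0 of the 9 genes, in young and in senescent MSCs alike.

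**Figure D1:**
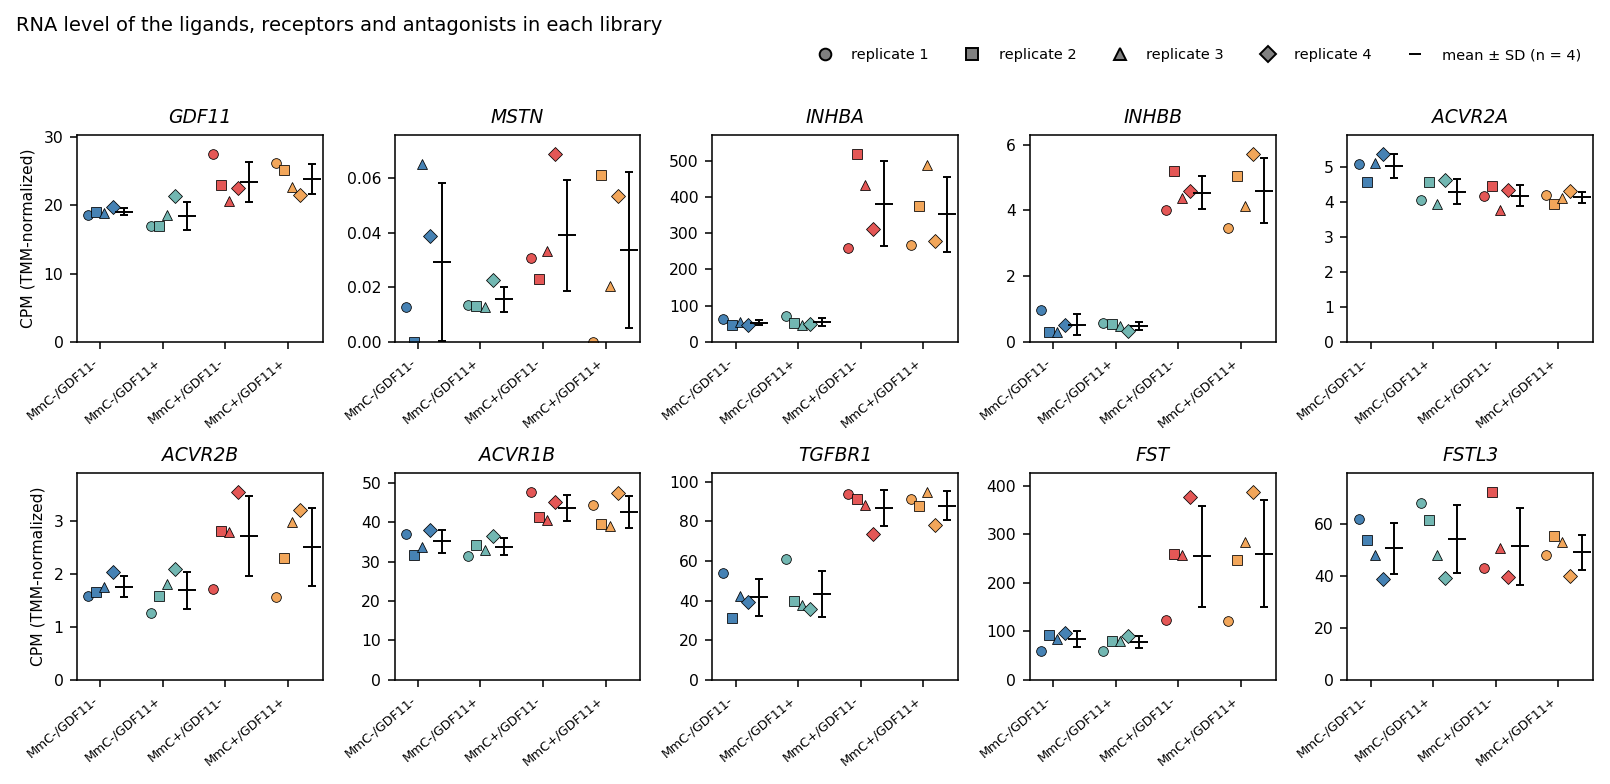
Normalised read count (CPM, read counts scaled to a common library size by TMM) of each of the 10 genes in the 16 libraries, by group. Each symbol is 1 library, its shape gives the replicate number, and the bar to the right of each group is the mean ± SD of 4 libraries. *INHBA*, *INHBB*, *TGFBR1* and *FST* sat higher in every MmC+ library than in any MmC- library, and the GDF11+ groups overlapped with their GDF11- counterparts.

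The genes that rose most (*INHBB*, *INHBA* and *FST*) and the antagonist that did not (*FSTL3*) belong to the same axis. As a description, the sequences just upstream of their annotated start sites are shown side by side. They are from RefSeq on GRCh38.p14, printed 5′ to 3′ on the strand of the gene. Capitals mark matches, on either strand, to the AP-1 motif TGANTCA, the cyclic AMP response element TGACGTCA, the SMAD motif CAGACA or the TATA motif TATAAA, which were chosen with the expression values known.
INHBA: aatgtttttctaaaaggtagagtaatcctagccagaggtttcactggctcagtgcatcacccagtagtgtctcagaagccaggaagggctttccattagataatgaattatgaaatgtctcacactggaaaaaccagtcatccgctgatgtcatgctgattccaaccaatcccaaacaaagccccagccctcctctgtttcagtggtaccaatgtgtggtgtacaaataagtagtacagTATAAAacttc
INHBB: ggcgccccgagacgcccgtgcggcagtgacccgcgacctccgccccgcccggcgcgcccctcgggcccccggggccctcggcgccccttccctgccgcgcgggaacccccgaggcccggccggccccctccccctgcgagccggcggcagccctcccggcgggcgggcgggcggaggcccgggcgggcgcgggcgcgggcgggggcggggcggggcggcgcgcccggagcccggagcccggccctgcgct
FST: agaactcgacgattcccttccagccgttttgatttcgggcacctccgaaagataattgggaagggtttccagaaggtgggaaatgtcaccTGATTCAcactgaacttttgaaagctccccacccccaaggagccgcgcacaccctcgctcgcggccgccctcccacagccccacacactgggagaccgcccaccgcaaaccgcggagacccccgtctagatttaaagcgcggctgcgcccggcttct
FSTL3: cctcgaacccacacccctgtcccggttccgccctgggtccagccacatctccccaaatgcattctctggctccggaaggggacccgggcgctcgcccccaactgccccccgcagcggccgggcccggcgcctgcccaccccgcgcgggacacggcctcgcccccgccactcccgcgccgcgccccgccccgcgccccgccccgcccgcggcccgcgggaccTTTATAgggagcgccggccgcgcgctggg
The *INHBA* window (chr7:41703091-41703340, minus strand) lay before the RefSeq start and inside an intron of longer GENCODE transcripts that begin farther upstream. The *INHBB* window was chr2:120345886-120346135, the *FST* window chr5:53480379-53480625 and the *FSTL3* window chr19:676142-676391, all on the plus strand. The windows differed widely in composition, with 42.8% G and C in *INHBA*, 60% in *FST*, 80% in *FSTL3* and 89.6% in *INHBB*, where the median of the 35116 upstream windows in the table was 58%. *INHBA* held a TATA match on the strand of the gene that began at position -11 from the start. *FSTL3* held one at -29 on the opposite strand, printed as TTTATA. *FST* held an AP-1 match at -160 from the RefSeq start, and *INHBB* held no match to any of the 4 motifs. The printed *FST* window was cut to 247 bases because the GENCODE gene begins slightly before the RefSeq start. Of all windows of this kind, 10.72% held a TATA match, 6.573% an AP-1 match, 13.61% a SMAD match and 1.646% a cyclic AMP response element. A match is a string of letters and not a measured binding site.

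Among the ligands, *INHBA* on chromosome 7 (GRCh38 chr7:41667168-41705834), which encodes the chain of activin A, was the most abundant and was strongly higher after mitomycin C. Its level was 64.0, 47.8, 53.7 and 47.8 CPM in the MmC-/GDF11- libraries (here and below in the order of replicates 1, 2, 3, 4), against 260.3, 519, 434 and 311 CPM in the MmC+/GDF11- libraries. With added GDF11 it was 72.2, 51.6, 47.3 and 48.8 CPM in young and 268, 376, 488 and 277 CPM in senescent MSCs. The lowest senescent library, at 260.3 CPM, was far above the highest young one, at 72.2 CPM. The difference was 7.18-fold without GDF11 (95% interval 5.01 to 10.3; log2 fold change 2.84, SE 0.244, adjusted p = 4.39e-07) and 6.36-fold with GDF11 (95% interval 4.45 to 9.08; log2 fold change 2.67, SE 0.242, adjusted p = 7.83e-07; edgeR). Only 2.93% of all tested genes had a larger log2 fold change than *INHBA* without GDF11. The senescent libraries spread more widely than the young ones, with SDs of 117 and 103 CPM against 7.61 and 11.6 CPM. An antisense gene, *INHBA-AS1*, covers 2.99% of the *INHBA* exons, and it was counted at 0.146 to 0.937 CPM.

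*INHBB* (chr2:120346136-120351803), the gene of the activin B chain, started from a very low level and showed the largest log2 fold change of the axis. In MmC-/GDF11- it was 0.973, 0.293, 0.300 and 0.522 CPM and in MmC+/GDF11- it was 4.00, 5.20, 4.36 and 4.60 CPM. The GDF11+ groups held 0.573, 0.533, 0.486 and 0.316 CPM in young and 3.48, 5.05, 4.12 and 5.72 CPM in senescent MSCs. Groups did not overlap, although young libraries rested on no more than 75 reads each and as few as 23. The rise was 8.75-fold without GDF11 (95% interval 5.48 to 14.0; log2 fold change 3.13, SE 0.319, adjusted p = 1.77e-06) and 9.58-fold with GDF11 (95% interval 5.96 to 15.4; log2 fold change 3.26, SE 0.323, adjusted p = 1.45e-06; edgeR). Even after this rise *INHBB* stayed well under *INHBA*: per kilobase of exon the senescent means without GDF11 were 1.42 CPM for *INHBB* and 46.0 CPM for *INHBA*.

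The *GDF11* gene itself (chr12:55743122-55757264) was modestly higher in senescent MSCs. The added ligand was recombinant protein, so the counts below are RNA from the cells' own gene. Its level was 18.7, 18.98, 18.8 and 19.8 CPM in MmC-/GDF11- and 27.6, 23.0, 20.7 and 22.6 CPM in MmC+/GDF11-. With the protein added it was 17.0, 17.0, 18.6 and 21.4 CPM in young and 26.3, 25.3, 22.7 and 21.5 CPM in senescent cells. Every senescent library was above every young library of the same GDF11 condition, but in the presence of GDF11 the gap was 21.4 against 21.5 CPM. The fold was 1.23 without GDF11 (95% interval 1.06 to 1.43; log2 fold change 0.30, SE 0.100, adjusted p = 0.0216) and 1.29 with GDF11 (95% interval 1.11 to 1.49; log2 fold change 0.37, SE 0.100, adjusted p = 0.00712; edgeR). The call without GDF11 was lost in 4 of 18 alternatives. Without replicate 1 of MmC+/GDF11-, the highest of all at 27.6 CPM, the log2 fold change was 0.23 (edgeR adjusted p = 0.0671), and with all libraries but no filter on low counts it was 0.30 (edgeR adjusted p = 0.0732). *SARNP*, which runs antisense to *GDF11*, covers 4.29% of its exons and was counted at 0.668 to 2.06 CPM.

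*MSTN* (chr2:190055700-190062729), the gene of myostatin and the nearest relative of *GDF11*, was barely detected. It had 0 to 6 reads per library, 43 in all 16 libraries, with 10 and 5 summed over the young groups without and with GDF11 and 14 in each senescent group. The groups overlapped and no test was made. No stretch of 31 bases is shared between the annotated *GDF11* and *MSTN* transcripts.

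Of the type II receptors, *ACVR2A* (chr2:147844517-147930826) was the more abundant and *ACVR2B* (chr3:38453890-38493142) the one whose level rose. *ACVR2A* was 5.07, 4.56, 5.10 and 5.37 CPM in MmC-/GDF11- and 4.16, 4.44, 3.77 and 4.34 CPM in MmC+/GDF11-. In the GDF11+ groups it was 4.04, 4.57, 3.94 and 4.62 CPM in young and 4.18, 3.93, 4.11 and 4.31 CPM in senescent MSCs. The MmC-/GDF11- libraries lay above every MmC+ library and overlapped with MmC-/GDF11+. The difference from MmC+/GDF11- was small and near the threshold (log2 fold change -0.26, SE 0.104, adjusted p = 0.0489; edgeR), and it did not pass under 14 of 18 alternative settings, with adjusted p up to 0.235. With GDF11 the difference did not pass (log2 fold change -0.06, SE 0.104, adjusted p = 0.653). The difference between these 2 comparisons was 0.20 on the log2 scale (SE 0.147, edgeR unadjusted p = 0.190), so a dependence on added GDF11 was not shown. *ORC4* and a minor antisense gene overlap 8.39% of the *ACVR2A* exons, and *ORC4*, at 15.1 to 23.9 CPM, was more abundant than *ACVR2A* itself.

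*ACVR2B* was 1.58, 1.65, 1.76 and 2.04 CPM in MmC-/GDF11- and 1.72, 2.82, 2.79 and 3.55 CPM in MmC+/GDF11-. With GDF11 it was 1.26, 1.59, 1.82 and 2.10 CPM in young and 1.56, 2.31, 2.98 and 3.21 CPM in senescent MSCs. Replicates 2, 3 and 4 of both senescent groups lay above every young library, while replicate 1 of both lay among the young. Without GDF11 the rise was 1.55-fold (log2 fold change 0.63, SE 0.237, adjusted p = 0.0392; edgeR) and with GDF11 the value was 1.48-fold and did not pass (log2 fold change 0.57, SE 0.238, adjusted p = 0.0602). Without replicate 1 of all groups the latter log2 fold change became 0.62 and passed (adjusted p = 0.00637), and without replicate 1 of MmC+/GDF11+ alone it was 0.74 (adjusted p = 0.0117). Without GDF11, in turn, leaving out replicate 4 of MmC+/GDF11- lowered the value to 0.49 (adjusted p = 0.126), and 5 other single libraries also took the call away.

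Both type I receptors rose. *ACVR1B* (chr12:51951699-51997078) ranged from 31.7 to 37.9 CPM in MmC-/GDF11- and from 40.5 to 47.7 CPM in MmC+/GDF11-, with 31.4 to 36.6 and 38.9 to 47.4 CPM in the matching GDF11+ groups. No senescent library reached down to the young range, and the rise was 1.25-fold in both comparisons (log2 fold change 0.32, SE 0.0897, adjusted p = 0.00890; with GDF11, log2 fold change 0.33, SE 0.0897, adjusted p = 0.00721; edgeR). *TGFBR1* (chr9:99104038-99154192) was 53.8, 31.2, 42.3 and 39.5 CPM in MmC-/GDF11- and 93.9, 91.1, 88.1 and 73.6 CPM in MmC+/GDF11-. With GDF11 it was 60.9, 39.6, 37.5 and 35.8 CPM in young and 91.4, 87.6, 94.9 and 78.1 CPM in senescent MSCs. The lowest senescent value, 73.6 CPM, was above the highest young value, 60.9 CPM. *TGFBR1* was 2.08-fold higher without GDF11 (95% interval 1.61 to 2.69; log2 fold change 1.06, SE 0.175, adjusted p = 0.000168) and 2.01-fold higher with GDF11 (95% interval 1.55 to 2.60; log2 fold change 1.01, SE 0.175, adjusted p = 0.000247; edgeR). Both of its rises kept an adjusted p of at most 0.00144 in all 18 alternatives.

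The antagonists parted. *FST* (chr5:53480626-53487134), which encodes follistatin, was 59.5, 92.5, 85.0 and 96.7 CPM in MmC-/GDF11- and 123, 259, 257 and 377 CPM in MmC+/GDF11-. With GDF11 it was 59.9, 80.9, 79.3 and 91.1 CPM in young and 121, 247, 284 and 387 CPM in senescent MSCs. Every senescent library was above every young library, but replicate 1 of each senescent group, at 123 and 121 CPM, was far below the other replicates, which ran from 247 to 387 CPM. The rise was 3.06-fold without GDF11 (95% interval 1.88 to 4.98; log2 fold change 1.61, SE 0.329, adjusted p = 0.00108) and 3.33-fold with GDF11 (95% interval 2.04 to 5.42; log2 fold change 1.73, SE 0.331, adjusted p = 0.000629; edgeR).

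*FSTL3* (chr19:676392-683392) was 61.8, 53.8, 48.1 and 38.6 CPM in MmC-/GDF11- and 43.0, 72.3, 50.6 and 39.4 CPM in MmC+/GDF11-. In the GDF11+ groups it was 67.9, 61.3, 48.1 and 39.1 CPM in young and 47.9, 55.3, 53.0 and 39.9 CPM in senescent MSCs. All 4 groups overlapped, and their means lay between 49.0 and 54.1 CPM. The log2 fold change after mitomycin C was 0.03 (95% interval -0.41 to 0.47, adjusted p = 0.927, edgeR) without GDF11 and -0.15 (95% interval -0.59 to 0.29, adjusted p = 0.578) with GDF11. Folds from 0.751 to 1.38 without GDF11 and from 0.663 to 1.22 with GDF11 were thus within the error. Between libraries of the same number, replicate 1 fell in both comparisons and replicates 3 and 4 rose in both. Replicate 2 rose without and fell with GDF11.

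**Figure D2:**
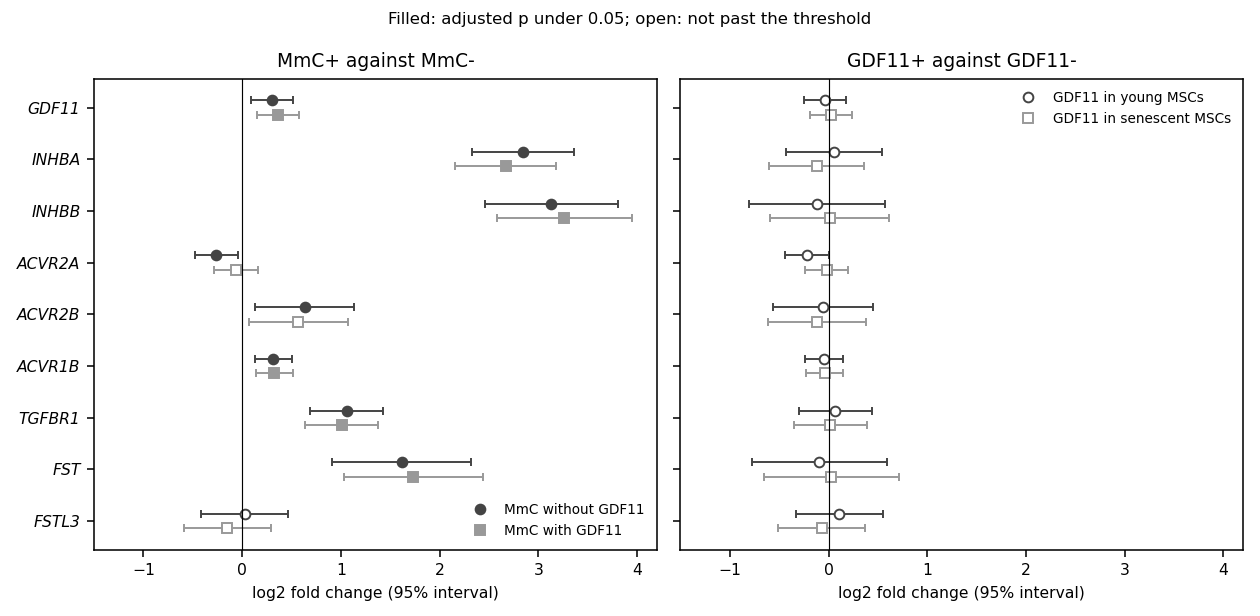
Log2 fold change with its 95% interval for the 9 tested genes. The left panel gives senescent against young MSCs without and with GDF11, and the right panel GDF11+ against GDF11- in young and in senescent MSCs. Filled symbols had an adjusted p under 0.05 (edgeR). *INHBA*, *INHBB* and *FST* lay farthest to the right on the left panel, and no symbol on the right panel was filled.

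Whether GDF11 protein moved the genes of its own pathway was tested in young and in senescent MSCs. In young MSCs 0 of the 9 genes were called by edgeR (0% of all tested genes), and 1 of 9, *ACVR2A*, had an unadjusted p under 0.05, against 1.18% of all tested genes. Its log2 fold change was -0.22 (SE 0.104, unadjusted p = 0.0497, edgeR). In senescent MSCs 0 of the 9 were called (0% of all tested genes) and 0 had an unadjusted p under 0.05, against 0.503%. The counts for the 9 genes were the same with limma-voom, DESeq2 and edgeR with a replicate block. With the block, genes of all tested with an unadjusted p under 0.05 went from 226 to 551 in young MSCs (edgeR). In senescent MSCs they went from 96 to 145. The groups overlapped for each of the 9 genes in both comparisons, where 0.947% of all tested genes in young and 0.508% in senescent MSCs did not overlap. The intervals bound what could have been missed by the main fit, which ignores replicate number. For *GDF11* itself the log2 fold change was -0.04 (95% interval -0.25 to 0.18) in young and 0.03 (95% interval -0.19 to 0.24) in senescent MSCs. For *INHBA* it was 0.05 (95% interval -0.43 to 0.54) and -0.12 (95% interval -0.60 to 0.36). The widest intervals were those of *FST*, from -0.78 to 0.59 in young and from -0.66 to 0.71 in senescent MSCs, and of *INHBB*, from -0.81 to 0.57 and from -0.59 to 0.61. With the replicate number as a block, the *FST* interval was narrower, from -0.41 to 0.25 in young and from -0.31 to 0.35 in senescent MSCs. That of *INHBB* was not clearly narrower, from -0.86 to 0.67 in young and from -0.57 to 0.60 in senescent MSCs.

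The difference between the GDF11 effects in senescent and young MSCs (the interaction) was called for 0 of the 9 genes, and 0 had an unadjusted p under 0.05. Over all tested genes the shares were 0% and 0.9%. For the most strongly changed genes the interaction was -0.17 (SE 0.322) for *INHBA*, 0.13 (SE 0.432) for *INHBB*, -0.05 (SE 0.245) for *TGFBR1* and 0.12 (SE 0.455) for *FST*. The fold changes after mitomycin C without and with GDF11 were thus not shown to differ.

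To compare genes with each other, CPM values were divided by exon length in kilobases. In MmC-/GDF11- the order was *FST* (30.3 ± 6.06 CPM per kb, SD, n = 4), *FSTL3* (16.7 ± 3.22), *INHBA* (6.44 ± 0.918), *ACVR1B* (6.20 ± 0.514), *TGFBR1* (5.22 ± 1.17), *GDF11* (2.17 ± 0.0597), *ACVR2A* (0.779 ± 0.0524), *INHBB* (0.163 ± 0.0995), *ACVR2B* (0.112 ± 0.0128) and *MSTN* (0.0104 ± 0.0103). Libraries overlapped between the neighbours *INHBA* and *ACVR1B*, *ACVR1B* and *TGFBR1*, and *INHBB* and *ACVR2B*, so these pairs are not ordered beyond their spread. With GDF11 the order of the young means was the same, and *FST* and *FSTL3* then overlapped as well. In MmC+/GDF11- *INHBA* moved past *FSTL3* to second place (46.0 ± 14.1 CPM per kb) and overlapped with *FST* (92.4 ± 37.7). *TGFBR1* (10.8 ± 1.14) moved past *ACVR1B* (7.71 ± 0.592), and *INHBB* (1.42 ± 0.157) past *ACVR2A* (0.648 ± 0.0460). The order was the same in MmC+/GDF11+. The type II receptors were thus the scarcest tested RNAs of the axis in senescent cells, with *ACVR2B* at 0.173 ± 0.0480 CPM per kb.

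**Figure D3:**
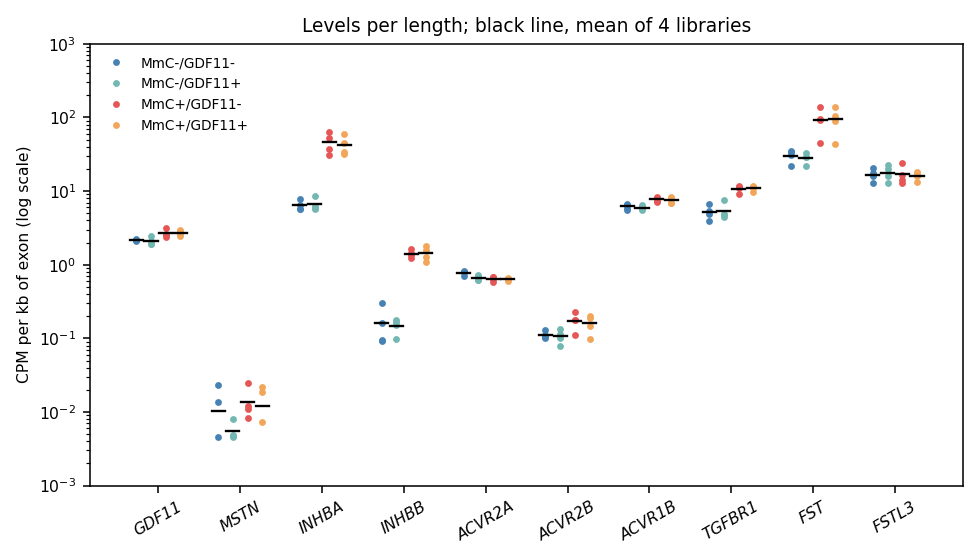
RNA level per kilobase of exon (log scale) of the 10 genes in the 4 groups. Each point is 1 library and each black line the mean of 4 libraries, and the 2 libraries in which *MSTN* had 0 reads are not drawn. Group means spanned from 0.00553 CPM per kb (*MSTN* in MmC-/GDF11+) to 94.5 CPM per kb (*FST* in MmC+/GDF11+), and *INHBA* and *INHBB* made the largest steps between MmC- and MmC+.

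Ratios of paired genes within a library do not depend on scaling between libraries, and group values are geometric means. They were compared by two-sided exact permutation tests of 4 against 4 libraries, where the smallest possible p is 0.0286. None of the 28 tests passed after Benjamini-Hochberg adjustment. With that floor, no test could pass unless most of the 28 reached it, so a pass was hardly possible. The lack of a pass therefore does not show that the ratios were alike. Per kilobase, *INHBA* RNA was at 0.389 of *FSTL3* RNA in MmC-/GDF11- and at 2.70 in MmC+/GDF11-, with 0.375 and 2.57 in the GDF11+ groups. The libraries did not overlap in either comparison (n = 4 and 4, exact permutation p = 0.0286, adjusted p = 0.133 for each). Against *FST*, *INHBA* was at 0.214 in young and 0.517 in senescent MSCs without GDF11, and at 0.234 and 0.473 with GDF11, with overlap in both (exact permutation p = 0.0571, adjusted p = 0.160). Between libraries with the same replicate number this ratio rose in every number, under both GDF11 conditions. In replicate 4 the log2 ratio went from -2.61 to -1.87 without and from -2.49 to -2.07 with GDF11. The ratio of *FST* to *FSTL3* was 1.81 in MmC-/GDF11- and 5.21 in MmC+/GDF11-, with 1.60 and 5.43 in the GDF11+ groups, and the libraries did not overlap (exact permutation p = 0.0286, adjusted p = 0.133).

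The ratio of *ACVR2A* to *ACVR2B* was 6.96 in young and 3.86 in senescent MSCs without GDF11, with no overlap (exact permutation p = 0.0286, adjusted p = 0.133), and 6.27 and 4.15 with GDF11, with overlap (exact permutation p = 0.0857, adjusted p = 0.218). *TGFBR1* to *ACVR1B* was 0.828 in young and 1.40 in senescent MSCs without GDF11 (exact permutation p = 0.0286, adjusted p = 0.133), and 0.890 and 1.47 with GDF11 (exact permutation p = 0.0571, adjusted p = 0.160). *GDF11* RNA was at 0.0727 of *FST* RNA in young and 0.0310 in senescent MSCs without GDF11 (exact permutation p = 0.114, adjusted p = 0.267), and at 0.0749 and 0.0311 with GDF11 (exact permutation p = 0.0571, adjusted p = 0.160), with overlap in both. Between libraries with the same replicate number, each ratio in this paragraph moved the same way in every number, under both GDF11 conditions.

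**Figure D4:**
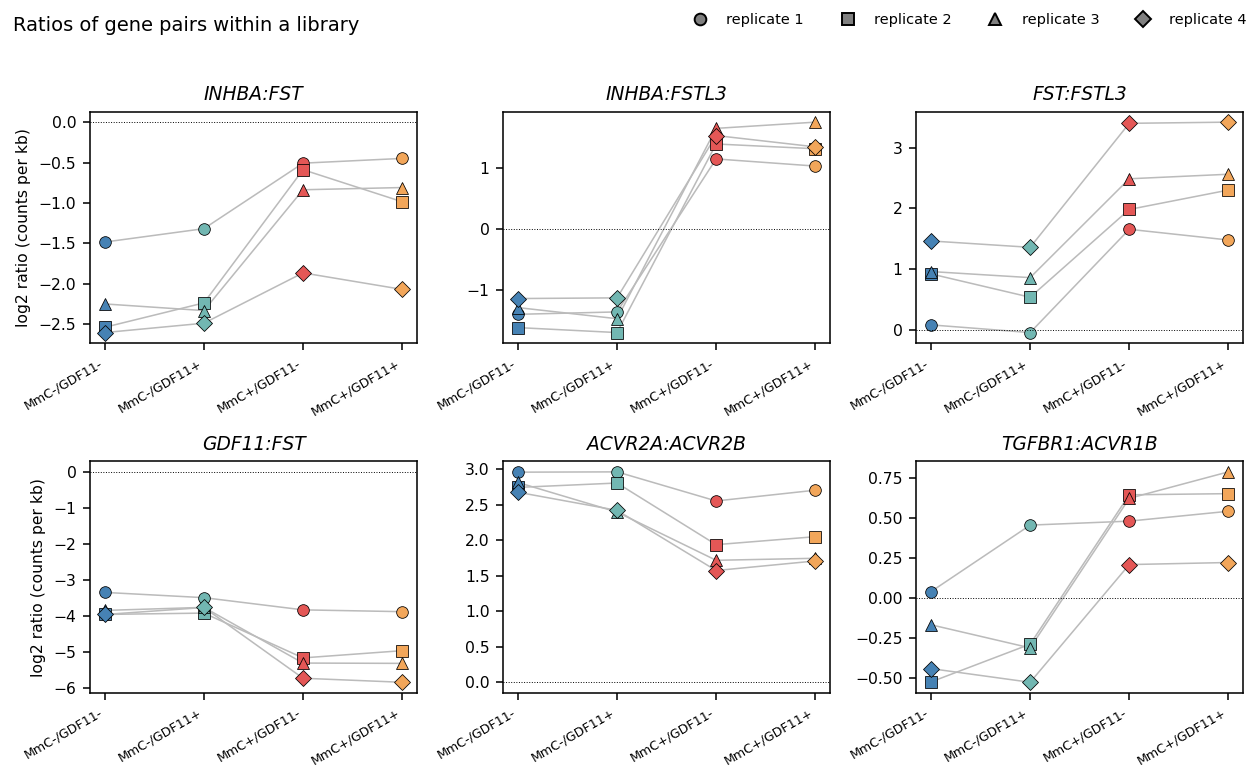
Log2 ratio of 6 gene pairs, in counts per kilobase, within each library. Symbols give the replicate number, grey lines join libraries with the same number, and the dotted line is a ratio of 1. *INHBA* lay below *FSTL3* in young and above it in senescent MSCs in all 4 replicate numbers under both GDF11 conditions, and the ratio of *FST* to *FSTL3* was lowest in replicate 1 of every group.

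Replicate number moved with several of these genes, and the study names batch effects among its limits without assigning them to libraries. *FST* in replicate 1 was below its group mean in all 4 groups, by 0.69 on average on the log2 scale, and in replicate 4 it was above in all 4, by 0.46. *ACVR2B* showed the same direction, at -0.45 in replicate 1 and 0.35 in replicate 4, with all 4 groups alike. *FSTL3* was lowest in replicate 4 of every group (mean deviation -0.36), and *TGFBR1* was above its group mean in every replicate 1 (0.27) and below in every replicate 4 (-0.17). *GDF11* and *INHBB* showed no direction shared by all 4 groups for any replicate number. In replicate 1, however, the young and senescent groups deviated in opposite directions. *GDF11* was at -0.03 and -0.12 in young and at 0.24 and 0.14 in senescent MSCs (without and with GDF11). *INHBB* was at 1.04 and 0.29 against -0.17 and -0.37, and *INHBA* at 0.27 and 0.41 against -0.50 and -0.35. Without replicate 1 of all groups the mitomycin C log2 fold changes without GDF11 protein were 0.21, 3.66 and 3.09, in that order. A fit with the number as a block takes out only the shifts that all groups share. In that fit, without GDF11, *FST* was at 1.53 (SE 0.157) and *ACVR2B* at 0.60 (SE 0.131). Shifts that differ between MmC- and MmC+ libraries of the same number stay in the fit. For *FST* in replicate 1 they were -0.46 and -0.36 in young and -0.94 and -0.98 in senescent MSCs. With GDF11 the block brought *ACVR2B* past the threshold, at 0.55 (SE 0.132, edgeR adjusted p = 0.00231).

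Genes whose pattern was most like these were sought among 10962 genes over the 16 libraries by Pearson correlation of log2 CPM, as a description. The 16 points share groups and replicate numbers. Closest to *INHBA* were *IL1B*, the gene of a leading inflammatory cytokine (r = 0.995), *ST3GAL1*, of a sialyltransferase (r = 0.995), and *SERPINE2*, of a serine protease inhibitor (r = 0.994). Closest to *FST* were *DUSP6* (r = 0.990) and *DUSP5* (r = 0.989), which encode phosphatases of MAP kinases, and *TSLP*, of the cytokine thymic stromal lymphopoietin (r = 0.989). These stayed close to *FST* within groups, with r of 0.970, 0.982 and 0.966 after group means were removed, whereas the values for *INHBA* fell to 0.889, 0.881 and 0.883. Closest to *GDF11* were *BTRC* (r = 0.944), *VEGFC* (r = 0.939) and *ERGIC1* (r = 0.937).

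The rest of the pathway was described with lists of 62 further genes, of which 52 were tested. After mitomycin C without GDF11, 18 were higher, 6 lower and 28 not called, and with GDF11 19 were higher, 2 lower and 31 not called. That is to be read against the 22.9% of all tested genes called higher and 22.4% lower without GDF11, and 23.4% and 23.3% with GDF11. Their median log2 fold change was 0.33 without and 0.40 with GDF11, where that of all tested genes was -0.01 in both. Replicate 1 stood apart for many of them: without replicate 1 of all groups (a setting chosen after the data were seen) every gene called with all libraries was called again, and the counts became 25 higher and 11 lower without GDF11 and 26 higher and 11 lower with GDF11. In that setting the calls over all tested genes also rose, to 26.2% higher and 25.6% lower without GDF11 and 26.4% and 26.2% with GDF11. Among the other activin-class ligand chains, 2 of 6 were tested and *INHBE* was higher (1.34 and 1.28, adjusted p = 0.0156 and 0.0202, edgeR, without and with GDF11). In replicate 1 *INHBE* went the other way, from 2.87 CPM in MmC-/GDF11- to 2.40 CPM in MmC+/GDF11-, and without replicate 1 its log2 fold changes were 2.04 and 1.98. *NODAL* and *GDF3* had at most 4 reads in any library, and *GDF1*, whose exons all lie within *CERS1*, was listed at 0.

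Of 9 genes listed under ligand processing, 5 were higher and 0 lower in both comparisons, with medians of 0.86 and 0.87. The shares of all tested genes were 22.9% higher and 22.4% lower without GDF11, and 23.4% and 23.3% with GDF11. Membership is by name only, and whether *PAPPA* or the others act on GDF11 or activin in these cells was not tested. *PAPPA*, which encodes the protease pappalysin-1, went from 12.0 to 29.1 CPM in MmC-/GDF11- to 280.4 to 454.9 CPM in MmC+/GDF11- (log2 fold change 4.27, SE 0.321), although 21.1% of its exons are overlapped by an antisense gene. *TLL2*, of a tolloid-like protease (1.39 in both), *PCSK5*, of a proprotein convertase (1.15 and 1.33), and *LTBP3*, which binds latent TGF-beta (0.86 and 0.87), were also higher. *FURIN*, the convertase that cleaves ligand precursors, rose by 0.55 and 0.50 on the log2 scale.

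Of the 8 other receptors and co-receptors, 6 were tested. *TGFBR2*, the type II receptor of TGF-beta, was higher (0.58 and 0.62), as was *ACVR1*, a type I receptor also called ALK2 (0.34 and 0.41). *BMPR1A* was lower without GDF11 (-0.25, adjusted p = 0.0388, edgeR), and with GDF11 it did not pass (-0.22, adjusted p = 0.0640). Of the 11 other extracellular antagonists 7 were tested. *NOG*, which encodes the BMP antagonist noggin, was higher (1.57 and 1.47), with replicate 1 of the senescent groups at 12.4 and 12.9 CPM and the others between 2.66 and 4.79 CPM, and without replicate 1 it was at 0.90 and 0.83 and still passed. *GREM1*, of the BMP antagonist gremlin-1, passed with GDF11 (0.63, adjusted p = 0.0304, edgeR) and not without (0.55, adjusted p = 0.0574).

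Of the 12 intracellular transducers and brakes, 4 were higher in both comparisons, 3 were lower without GDF11 and 2 with GDF11, and the median was 0.07 and 0.06. Beside this, 22.9% of all tested genes were higher and 22.4% lower without GDF11, and 23.4% and 23.3% with GDF11. *SKIL*, of a SMAD corepressor (1.16 and 0.99), *SMAD7*, of the inhibitory SMAD (1.08 and 1.05), *SMURF1*, of a ubiquitin ligase (0.29 and 0.25), and *PPM1A*, of a phosphatase (0.23 and 0.28), were higher. Other brakes on the list, *BAMBI*, *SMURF2* and *FKBP1A*, were not called (adjusted p = 0.443, 0.0658 and 0.994 without GDF11, edgeR). *SMAD4*, the common partner of the receptor SMADs, was lower in both, from 54.0 to 56.7 CPM in MmC-/GDF11- to 37.5 to 40.1 CPM in MmC+/GDF11- (-0.53 and -0.51). *SKI*, of another corepressor, was lower in both (-0.40 and -0.42), and *SMAD3* passed without GDF11 (-0.32, adjusted p = 0.0118, edgeR) and not with GDF11 (-0.24, adjusted p = 0.0522).

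Of 16 genes known as targets of SMAD2 and SMAD3, 5 were higher in both comparisons, 2 were lower without GDF11 and 0 with GDF11. Over all tested genes 22.9% were higher and 22.4% lower without GDF11, and 23.4% and 23.3% with GDF11. *PMEPA1* had the largest log2 fold change (4.59 and 3.83) but was rare, with 2 to 5 reads in each young and 18 to 135 in each senescent library. *TGIF1*, of a transcriptional repressor (0.96 in both), *CDKN2B*, of the cell cycle inhibitor p15 (0.85 and 0.87), and *TGFBI*, of a matrix protein (0.71 and 0.69), were higher. *COL1A1* and *ELN*, of type I collagen and elastin, were lower without GDF11 (-1.38 and -0.96, adjusted p = 0.0485 and 0.0354, edgeR). With GDF11 they were at -1.29 and -0.88 and did not pass (adjusted p = 0.0612 and 0.0508). Without replicate 1, in which *COL1A1* was at 5829 CPM in MmC+/GDF11- against 1451 to 1669 CPM in the other replicates, *COL1A1* was lower in both comparisons (-1.75 and -1.95). *ELN*, at 114.8 CPM in replicate 1 of MmC-/GDF11- against 31.1 to 51.2 CPM in the others, shrank to -0.52 and -0.63 without it and passed in both. Of the 16 genes 8 were then higher and 4 lower in both comparisons. In that setting 26.2% of all tested genes were higher and 25.6% lower without GDF11, and 26.4% and 26.2% with GDF11. Added GDF11 was followed by a call in 0 of the 52 genes, in young and in senescent MSCs, and 0 of the 52 had an unadjusted p under 0.05 in either.

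**Figure D5:**
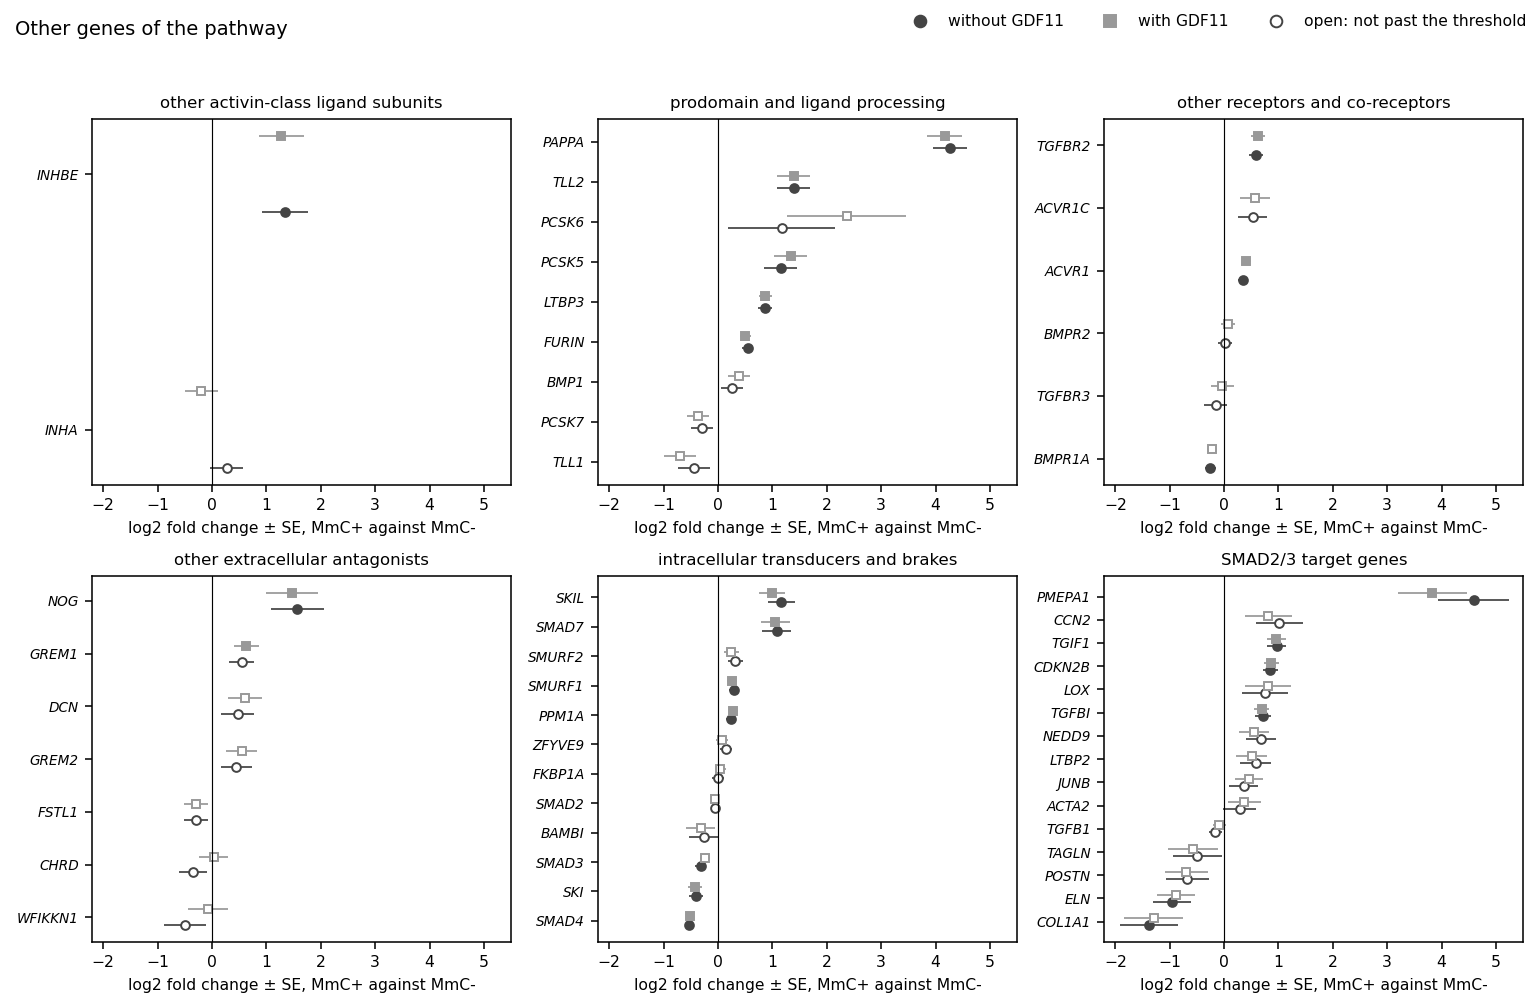
Log2 fold change ± SE of the further pathway genes, 1 of the 52 not being drawn, in senescent against young MSCs, by list, without GDF11 (circles) and with GDF11 (squares). Filled symbols had an adjusted p under 0.05 (edgeR). *PAPPA* and *PMEPA1* stood farthest to the right, and *COL1A1*, *ELN* and *SMAD4* were among those to the left of 0.

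In bulk RNA, fewer cells of a type and less RNA per cell cannot be told apart. The 6 MSC surface markers were abundant in all libraries (summed level 5060 to 6698 CPM), as the label of the line says. The sum hides opposite moves. Without GDF11 the means of *NT5E*, *CD44* and *ITGB1* were higher in senescent MSCs, and those of *THY1*, *ENG* and *PDGFRB* lower. *NT5E* went from 627 to 816 CPM and *PDGFRB* from 371 to 231 CPM, both with no overlap. *THY1* went from 1115 to 747 CPM, with overlap. Summed levels of 5 leukocyte markers were low, at 1.71 to 2.88 CPM in MmC- and 2.88 to 5.69 CPM in MmC+ libraries. Young and senescent libraries just overlapped without GDF11 (2.8798 against 2.8782 CPM) and did not with GDF11 (2.43 against 3.25 CPM). Of the 3 tested, 2 were called higher without and 3 with GDF11, against 22.9% and 23.4% of all tested genes. The 4 adipocyte markers summed to 1.16 to 2.48 CPM with overlapping groups, although *LEP* was called higher and *FABP4* lower in both comparisons. *EPCAM*, the defining epithelial marker, had 0 to 5 reads. The 4 epithelial markers together, mostly *KRT8* and *KRT18*, were at 102 to 166 CPM in MmC- and at 43.5 to 77.98 CPM in MmC+ libraries, and moved with the mitomycin C groups. The 5 endothelial markers, mostly *TEK*, summed to 47.7 to 112 CPM and the 4 smooth muscle markers to 8.05 to 18.3 CPM, with overlapping groups. Within the endothelial list members moved apart: *CDH5*, its defining cadherin, was lower (mean 2.42 CPM in MmC-/GDF11- and 0.849 CPM in MmC+/GDF11-, with no overlap), whereas *PECAM1* was higher (5.98 and 14.3 CPM, with overlap), and both were called with and without GDF11. The part of these shifts in the differences above was not tested.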

How the data were processed

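The authors sequenced poly(A) RNA from a directional kit, mapped reads to GRCh38 with HISAT2 2.2.1, counted them per gene with featureCounts 2.0.1 and deposited raw read counts for 60649 genes in 16 libraries. The strand setting and the treatment of multimapping reads are not given in the sources used here, so reads of overlapping antisense genes may not be separated. Groups and replicate numbers came from the sample titles. GENCODE v44 gave symbols, positions and exon lengths (60507 identifiers matched); the authors counted reads on the earlier release V38, so values per kilobase divide V38 counts by v44 lengths.

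Counts were filtered with filterByExpr (minimum count 10, minimum total 15), scaled by TMM and tested with the quasi-likelihood test of edgeR 4.0.16 (R 4.3.3) in 1 fit of all libraries, with Benjamini-Hochberg adjustment over 19103 genes and a threshold of 0.05. The steps were tested on simulated data with 200 changed genes. CPM were scaled by the TMM-adjusted library size. Ratios used counts with 0.5 added and exact permutation. Alternatives were RLE and upper-quartile scaling, other filters, a fit of the compared libraries alone, limma-voom (limma 3.58.1), DESeq2 1.42.0, a replicate block and leaving out libraries. The members, lists and motifs were chosen with earlier results of these data known. Named are all members and, from each list, genes past the threshold in a mitomycin C comparison, up to the 4 highest and 4 lowest; 1 such gene is not reported here.

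Same-numbered libraries deviated together between MmC+/GDF11- and MmC-/GDF11- (correlations 0.114 to 0.367) and between both senescent groups (lowest 0.448). The numbers were taken as pairs there. They were not in the mitomycin C comparison with GDF11 (lowest 0.0284) or in young MSCs (0.0983 to 0.504). That split is narrow, since it rests on a cutoff for the lowest correlation that lies between 0.0983 and 0.114. The main fits and the permutation tests used no pairing, and the replicate block was an alternative.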

Additional observations from a re-analysis of the deposited data

How the results depend on the processing

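Of 873 alternative values for the 9 tested genes, 840 kept their direction or their lack of a call, 25 lost a call, 8 gained one and 0 reversed a called direction. *INHBA*, *INHBB*, *ACVR1B*, *TGFBR1* and *FST* kept their calls in all 18 alternatives of both mitomycin C comparisons. The count of called genes of the 9 ran from 6 to 8 without GDF11 (6 to 7 with a library left out) and from 6 to 7 with GDF11, and it stayed at 0 for added GDF11 and the interaction. The calls that moved were *ACVR2A* without GDF11 (lost in 14 of 18, as with RLE scaling, adjusted p = 0.0660, and upper-quartile scaling, 0.0780), *ACVR2B* without GDF11 (lost in 7 of 18, adjusted p up to 0.126), *GDF11* without GDF11 protein (lost in 4 of 18, as with no filter, adjusted p = 0.0732, and without replicate 1, 0.0865) and *ACVR2B* with GDF11 (gained in 8 of 18). The causes were not tested.

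With the replicate block, the pairing changed no call where the numbers were taken as pairs: without GDF11 8 of the 9 genes were again called, *ACVR2A* at -0.26 (adjusted p = 0.0232) and *GDF11* at 0.30 (0.0125). Where they were not, the block brought *ACVR2B* with GDF11 past the threshold (adjusted p = 0.00231). A block without replicate 1, added after the data were seen, gave *GDF11* at 0.21 (adjusted p = 0.0508) without GDF11 protein. Depth limited *MSTN*, at 0 to 6 reads, and the young *INHBB* values, at 23 to 75 reads. Called genes of all tested ran from 7143 to 11546 without and from 7381 to 11688 with GDF11. For added GDF11 in young MSCs the main edgeR fit called 0 genes. DESeq2 called 1, as did edgeR without replicate 2 of MmC-/GDF11+.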
